A study of Homo sapiens with 2 samples.

Results

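The immediate early genes described here are FOS, FOSB, JUN, JUNB, JUND, EGR1, ATF3, IER2, IER3 and KLF6, taken by their symbols from the gene names in the deposited tables. All 10 were found among the 36601 genes listed, each under 1 gene ID, and all 10 passed the level needed to count as measured (at least 5 UMIs per 1000000 in either library). They were read in 2 single-cell RNA libraries of HT1080, an established human fibrosarcoma cell line with a wild-type genotype label. The 4B4 library came from spheroids kept for 72 h in collagen with 2 µg/ml of 4B4, an antibody that inhibits β1 integrin, and the control library from spheroids kept in collagen for the same time under a treatment label that names no antibody. Each library pooled many spheroids of 1 culture, so treatment and library cannot be told apart, and neither can β1 integrin blocking and other effects of an added antibody. Cells of both libraries were freed with collagenase at 37 °C and then with trypsin before capture.

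Immediate early genes are switched on within minutes of a stimulus, without new protein synthesis, when MAP kinases and other signals activate factors already bound at their promoters. Their transcripts are short-lived, many of their products are transcription factors, and Fos and Jun proteins pair through leucine zippers to form the AP-1 dimer. In fibroblasts and sarcoma cells they respond to growth factors and adhesion, and the warm enzymatic release of cells from a tissue or gel is also known to induce them, so their level in a freed cell can hold both what the culture had and what the release added. No undissociated sample was analysed here, so these sources cannot be told apart.

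The promoters show how the members differ in sequence, and those of 5 are printed as examples that together show each motif found. RefSeq's table for GRCh38.p14 gave a promoter, from 250 bases before to 50 bases after the annotated start, for 9 of the 10 members (ATF3 had 2 promoters), all but IER3. In the EGR1 promoter (chr5:138465229-138465528, plus strand) the capitals mark 2 CArG boxes, the motif of serum response factor.
EGR1: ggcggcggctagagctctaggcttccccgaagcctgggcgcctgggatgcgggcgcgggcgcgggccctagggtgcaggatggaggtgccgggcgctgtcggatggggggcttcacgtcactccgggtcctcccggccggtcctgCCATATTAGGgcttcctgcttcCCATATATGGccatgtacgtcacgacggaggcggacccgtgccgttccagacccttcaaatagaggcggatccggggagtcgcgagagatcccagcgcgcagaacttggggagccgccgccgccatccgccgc
In the FOS promoter (chr14:75278578-75278877, plus strand) the capitals mark TATAAA, the TATA box.
FOS: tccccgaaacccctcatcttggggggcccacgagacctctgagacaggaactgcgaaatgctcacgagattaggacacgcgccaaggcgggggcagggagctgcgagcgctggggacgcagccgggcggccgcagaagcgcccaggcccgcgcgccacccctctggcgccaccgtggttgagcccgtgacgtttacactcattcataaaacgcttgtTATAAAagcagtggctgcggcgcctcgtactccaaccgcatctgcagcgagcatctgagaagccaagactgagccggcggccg
In the JUN promoter (chr1:58783998-58784297, minus strand) the capitals mark a match to TGACNTCA, the motif of cyclic AMP response and ATF factors.
JUN: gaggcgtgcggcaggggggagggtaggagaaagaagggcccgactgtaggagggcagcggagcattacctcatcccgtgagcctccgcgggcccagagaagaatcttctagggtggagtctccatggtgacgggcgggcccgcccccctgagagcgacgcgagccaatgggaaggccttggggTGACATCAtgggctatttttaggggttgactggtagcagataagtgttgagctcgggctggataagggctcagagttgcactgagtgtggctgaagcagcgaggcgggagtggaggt
In the JUND promoter (chr19:18281573-18281872, minus strand) the capitals mark a match to the same motif.
JUND: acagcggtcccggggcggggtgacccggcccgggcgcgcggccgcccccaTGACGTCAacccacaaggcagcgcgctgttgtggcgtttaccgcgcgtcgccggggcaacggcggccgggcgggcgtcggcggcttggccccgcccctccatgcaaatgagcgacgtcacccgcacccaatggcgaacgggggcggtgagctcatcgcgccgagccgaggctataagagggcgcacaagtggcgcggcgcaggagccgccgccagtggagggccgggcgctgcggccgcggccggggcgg
In the KLF6 promoter (chr10:3785160-3785459, minus strand) the capitals mark a match to that motif and then GCGGGGGCG, the motif of EGR factors.
KLF6: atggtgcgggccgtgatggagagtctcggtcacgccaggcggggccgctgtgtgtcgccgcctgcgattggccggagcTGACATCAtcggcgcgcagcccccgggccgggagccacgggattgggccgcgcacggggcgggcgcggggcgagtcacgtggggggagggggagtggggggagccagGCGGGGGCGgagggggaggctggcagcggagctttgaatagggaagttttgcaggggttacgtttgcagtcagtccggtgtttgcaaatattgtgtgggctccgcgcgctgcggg
Searched on both strands, CArG was found in EGR1 alone of the 9 members and in 1.29% of 35116 human promoters of this length. TGACNTCA was found in 4 of the 9 members (JUN, JUND, ATF3 and KLF6), against 7.72% of promoters. TATAAA was in 4 members, against 11.5% of promoters. Its first base lay at -33 from the start in FOS, -30 in FOSB and -31 in JUNB, but at -230 in the second ATF3 promoter. ATF3 counts once here with 2 windows searched, while the shares are per promoter. GCGGGGGCG was in KLF6 only, against 5.07%. TGANTCA, the AP-1 motif, was in none of the 9 windows and in 7.71% of promoters, and the motifs searched do not overlap each other in the windows printed. A match is not a bound site, and a missing match says only that these letters are not in this window.

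The 4B4 library kept 1385 cells with 116451080 UMIs and the control library 3402 cells with 127218114 UMIs, after barcodes with under 1000 genes or over 20% mitochondrial UMIs were left out. A kept cell held a median of 68556 UMIs in the 4B4 library and 32914 in the control library, a ratio of 2.08, so shares of cells and correlations were read after each cell had been thinned to 17000 UMIs (1311 and 3099 cells, with 74 and 303 too shallow). The libraries shared 2 cell barcodes. Mitochondrial genes took a median of 7.63% of a 4B4 cell's UMIs and 9.16% of a control cell's, and 1155 of 1311 4B4 cells and 2122 of 3099 control cells were called G1. All 7 mesenchymal markers fixed for the check were measured, with summed levels of 6738 UPM in the 4B4 library and 6632 UPM in the control library, although FN1 was higher (1185 and 681 UPM) and CAV1 lower (52.2 and 121 UPM) in the 4B4 library. Of the epithelial, immune and endothelial markers only 3 were measured: CLDN4 (13.8 UPM in the 4B4 and 11.2 UPM in the control library), CD68 (38.4 and 26.5 UPM) and PECAM1 (45.8 and 30.3 UPM). KRT5 was at 0 in both libraries and PTPRC at 0.799 and 0.786 UPM. The part of these in the members' levels was not tested.

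Levels were UMIs summed over kept cells per 1000000 of the library's UMIs (UPM), and the 95% intervals given are exact and hold counting error, not the spread between cultures. The members together took 2504 UPM in the 4B4 library and 2448 UPM in the control library. Relative to library totals, none of the 10 was at least 1.5-fold higher and none lower by that much in the 4B4 library, beside 2.1% of all 11359 measured genes higher and 5.82% lower. The median log2 ratio (4B4 over control) of the 10 was 0.06, against -0.01 over all measured genes. Since each group has a single library, none of these differences could be set against replicates.

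Gene spans given here are those of GENCODE release 29 on GRCh38, and 3′ libraries tag transcript ends, so UPM were not scaled to gene length. Of the Fos proteins, FOS (chromosome 14, 75278774 to 75282230, plus strand), the main partner of Jun in AP-1, had 530 UPM (526 to 534) in the 4B4 library and 512 UPM (508 to 516) in the control library, a log2 ratio of 0.05. By UMIs it held place 232 of the 11359 measured genes in the 4B4 library and 225 in the control library. FOSB (chromosome 19, 45467995 to 45475179, plus strand), its close relative, had 69.4 UPM (67.9 to 70.9) in the 4B4 library and 96.2 UPM (94.5 to 97.9) in the control library, a log2 ratio of -0.47 (-0.51 to -0.43). FOSB thus lay lower in the 4B4 library while FOS was close to even, and the FOSB ratio stayed below 0 under all 10 alternatives that could change a ratio (other cell filters, depths, scalings and cell weights), from -0.57 to -0.20. FOSB lies within the span of ERCC1 on the opposite strand, and whether counting used strand is not given in the sources used here.

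JUN (chromosome 1, 58780788 to 58784327, minus strand), the main Jun partner of FOS, had 188 UPM (186 to 191) in the 4B4 library and 208 UPM (205 to 210) in the control library, a log2 ratio of -0.14. JUNB (chromosome 19, 12791496 to 12793315, plus strand), a Jun protein that activates less strongly, had 205 UPM (202 to 207) in the 4B4 library and 172 UPM (170 to 174) in the control library, a log2 ratio of 0.25 (0.23 to 0.28). JUND (chromosome 19, 18279760 to 18281622, minus strand), the Jun protein that cells hold more steadily, had 282 UPM (279 to 285) and 257 UPM (255 to 260), a log2 ratio of 0.13. The ratios of JUN and JUNB thus had opposite signs. The JUNB ratio kept its sign under all 10 (0.13 to 0.46), and the JUN ratio under 8 of 10 (-0.23 to 0.32). JUNB lies within HOOK2 on the opposite strand.

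EGR1 (chromosome 5, 138465490 to 138469315, plus strand), a zinc finger factor that serum response factor controls, had 75.6 UPM (74.0 to 77.1) in the 4B4 library and 66.8 UPM (65.4 to 68.3) in the control library, a log2 ratio of 0.18. ATF3 (chromosome 1, 212565334 to 212620777, plus strand), a leucine zipper factor induced by many stresses, had 41.6 UPM (40.5 to 42.8) and 62.4 UPM (61.0 to 63.8), a log2 ratio of -0.58 (-0.63 to -0.53). ATF3 had the ratio farthest from 0 of the 10 and lay just inside the 1.5-fold bound, which it passed under 5 of the 10 alternatives. Its ratio ran from -0.78 with the phases weighing the same to 0.12 with each cell weighing the same, where its direction turned. KLF6 (chromosome 10, 3775996 to 3785281, minus strand), a zinc finger factor of the Krüppel-like family, had 82.7 UPM (81.1 to 84.4) in the 4B4 library and 101 UPM (99.3 to 103) in the control library, a log2 ratio of -0.29.

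IER2 (chromosome 19, 13150415 to 13154908, plus strand), a small nuclear regulator, had 195 UPM (193 to 198) in the 4B4 library and 179 UPM (177 to 181) in the control library, a log2 ratio of 0.13. IER3 (chromosome 6, 30743199 to 30744554, minus strand), a short-lived protein that acts in cell survival and MAP kinase signalling, had the most UMIs of the 10, with 834 UPM (829 to 839) and 794 UPM (789 to 799) and a log2 ratio of 0.07. The 3 lowest ratios were thus those of ATF3, whose direction turned with each cell weighing the same, FOSB and KLF6. The other 7 members ran from -0.14 (JUN) to 0.25 (JUNB). Antisense genes on the opposite strand overlap IER2 (AC011446.2) and IER3 (IER3-AS1).

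**Figure D1:**
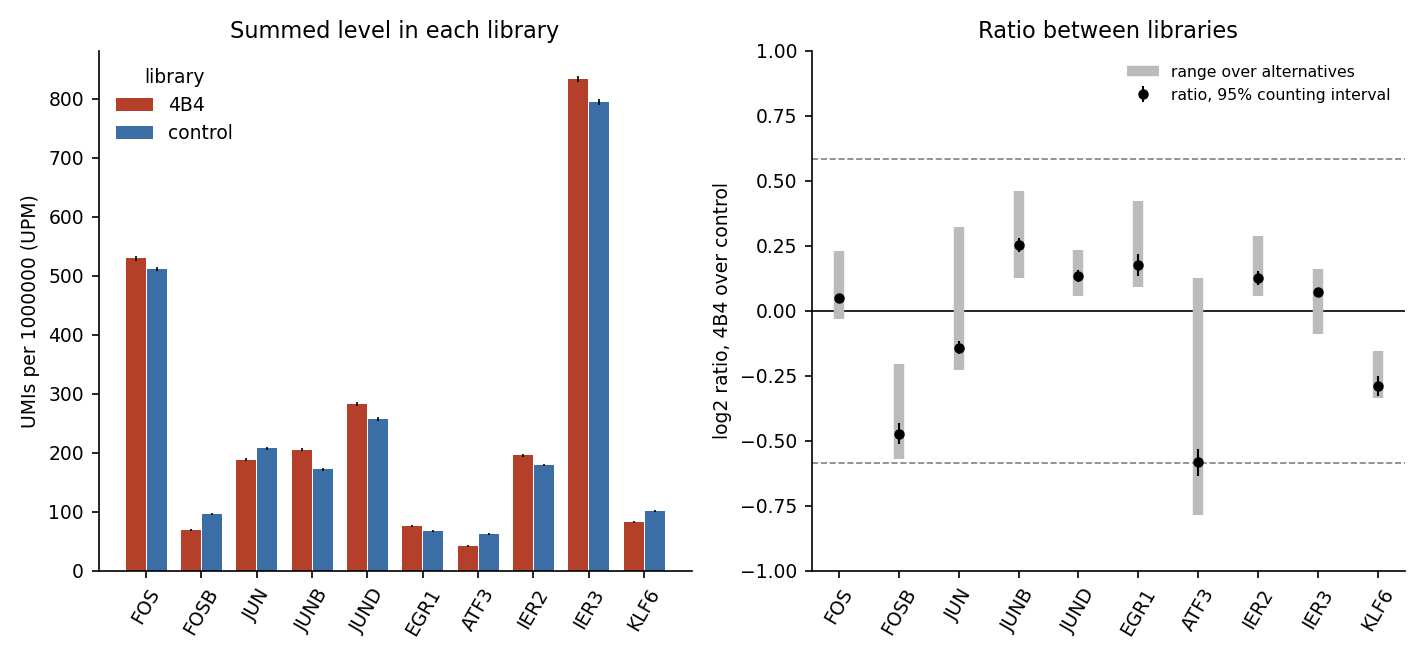
Left, UMIs per 1000000 (UPM) of each member summed over the kept cells of the 4B4 (red) and control (blue) libraries, with exact 95% Poisson intervals for counting error. Right, the log2 ratio of 4B4 over control (points, with 95% counting intervals), the range over 10 alternatives (grey bars) and the 1.5-fold bounds (dashed); ATF3, at -0.58, lies at the lower bound and its grey bar crosses 0.

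Some ratios moved with the weight given to shallow cells, and ATF3 and JUN moved most. The 84 kept 4B4 cells with under 20000 UMIs had 319 UPM of ATF3 (278 to 364), against 38.5 UPM (37.3 to 39.8) in the 799 4B4 cells with at least 60000 UMIs. The 533 control cells with under 20000 UMIs had 70.0 UPM of ATF3 (64.4 to 76.0), and the 420 with at least 60000 had 58.3 UPM (55.7 to 61.0). JUN showed the same pattern, with 851 UPM in the shallow and 176 UPM in the deep 4B4 cells and 236 and 185 UPM in the matching control cells. EGR1 (170 and 75.3 UPM), IER2 (347 and 188 UPM) and FOSB (133 and 68.6 UPM) were also higher in the shallow than in the deep 4B4 cells, while FOS was not (378 and 508 UPM). Shallow and deep control cells stood the other way for FOS (669 and 413 UPM), FOSB (78.9 and 99.3 UPM) and EGR1 (61.3 and 70.8 UPM), while IER2 had 200.5 and 168 UPM. The shallow 4B4 cells also had 50561 UPM of MALAT1, a nuclear noncoding RNA, against 11622 UPM in the deep 4B4 cells, and a median mitochondrial share of 4.95% against 7.35%. In the control library, shallow and deep cells had 14585 and 9609 UPM of MALAT1. The part of these values in the members' levels was not tested. With each cell weighing the same, whatever its depth, the log2 ratio was 0.12 for ATF3 and 0.32 for JUN, whereas thinned to 17000 UMIs, which leaves most of these cells out, it was -0.48 and -0.09. The barcodes that the cell filter left out, 374 in the 4B4 and 240 in the control library, had 124 and 76.9 UPM of FOSB, 132 and 51.8 UPM of KLF6 and 154 and 143 UPM of FOS.

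At 17000 UMIs per cell every member was found in a large share of cells in both libraries. IER3 was found in 98.4% of 4B4 cells (97.6% to 99.0%) and 98.7% of control cells (98.2% to 99.1%). FOS was found in 90.9% of 4B4 cells (89.2% to 92.4%) and 94.4% of control cells (93.5% to 95.1%), although its summed level was slightly higher in the 4B4 library. JUND had 95.1% and 94.0%, JUNB 82.5% and 78.2%, IER2 81.0% and 79.1%, and JUN 77.4% and 83.7% of 4B4 and control cells. Members with fewer UMIs were found in fewer cells: FOSB in 53.6% (50.9% to 56.4%) of 4B4 and 64.9% (63.2% to 66.6%) of control cells, and ATF3 in 39.7% (37.1% to 42.4%) and 50.8% (49.0% to 52.6%). KLF6 was found in 58.5% of 4B4 cells and 64.2% of control cells, and EGR1 in 55.4% and 52.1%. Without thinning, the order of the libraries turned for ATF3 (69.1% of 4B4 cells and 65.0% of control cells), FOSB (78.3% and 76.8%), JUN (92.3% and 90.7%) and KLF6 (82.4% and 75.2%). RNA free in the suspension can give a UMI to any cell, and the only cells here are HT1080, so no cell type lacking these genes gave a background for the shares.

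Cells differed in these genes by more than counting alone gives, as they also did in other genes of like level. At 17000 UMIs per cell the variance over the mean was above 2 for every member in both libraries, where counting error alone gives 1 and genes of like level had medians between 1.22 and 2.85. FOS had 6.57 in the 4B4 library and 4.98 in the control library, with a median of 9 and 8 UMIs per cell and a highest cell of 54 and 46. FOS was at 0 in 9.08% of 4B4 cells and 5.65% of control cells, where a Poisson spread at its mean gives 0.00487% and 0.0111%. The cells without FOS were thus far more than counting around a single mean gives, but no zeros of genes of like level were set beside them. In variance over mean, 18 of 172 such genes in the 4B4 library and 23 of 187 in the control library were at or above FOS. IER3 had the highest variance over mean (8.88 in the 4B4 and 10.1 in the control library) and EGR1 the lowest (2.22 and 2.04). JUND stood least apart from genes of like level, with 114 of 434 such genes at or above it in the 4B4 library and 100 of 484 in the control library, and IER3 most, with 4 of 102 and 5 of 89. The value was higher in the 4B4 library for every member but IER3, but the median of genes of like level was also higher there for most members (for FOS, 2.37 in the 4B4 and 1.98 in the control library). All 10 members were found together in 11.3% of 4B4 cells and 13.6% of control cells.

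**Figure D2:**
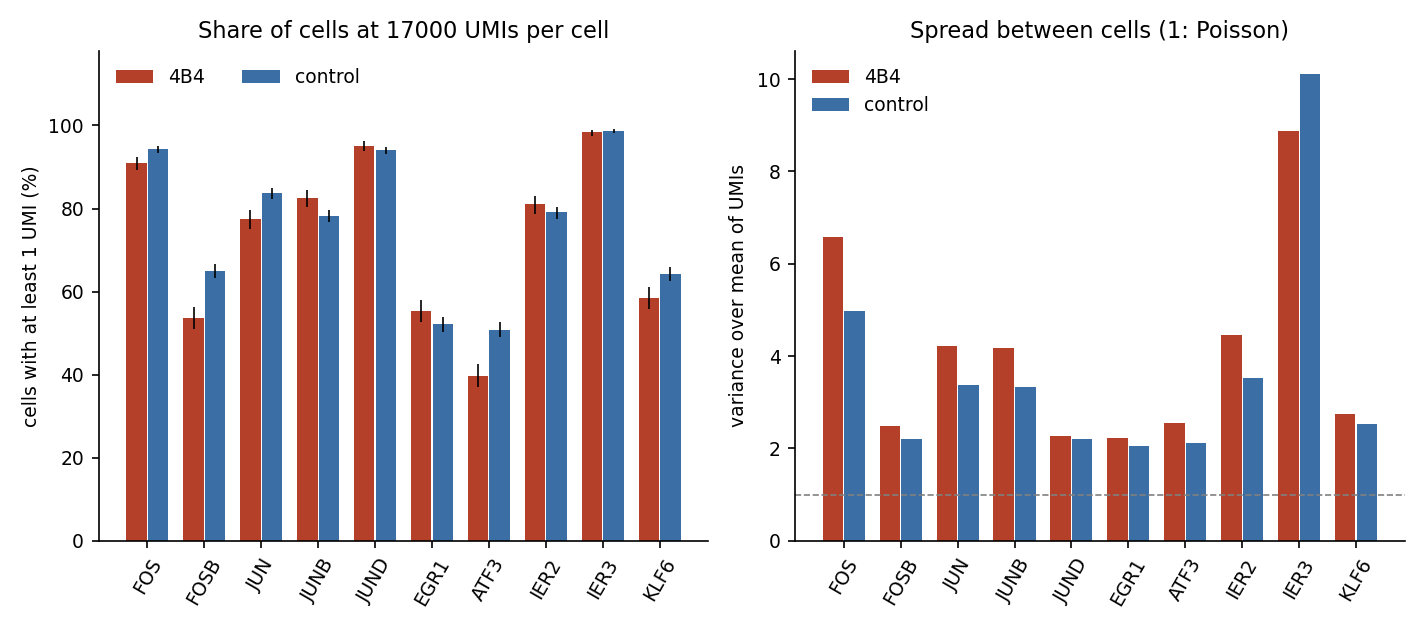
Left, share of cells with at least 1 UMI of each member after thinning to 17000 UMIs per cell, in 1311 4B4 cells (red) and 3099 control cells (blue), with exact 95% binomial intervals. Right, variance over mean of the UMIs per cell; the dashed line at 1 is the Poisson value, and every bar lies above 2.

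Over cells of 1 library, which share their capture, depth after thinning and culture, most members varied together. The mean Spearman correlation over the 45 pairs of members was 0.24 over the 1311 thinned 4B4 cells and 0.21 over the 3099 thinned control cells. FOS and JUN, the partners in AP-1, gave the highest pair in both libraries, at 0.47 in the 4B4 library and 0.40 in the control library. FOS also stood beside EGR1 (0.42 and 0.34), JUNB (0.41 and 0.33) and FOSB (0.40 and 0.37). The 28 pairs among FOS, FOSB, JUN, JUNB, JUND, EGR1, ATF3 and IER2 lay between 0.17 and 0.47 in the 4B4 library and between 0.14 and 0.40 in the control library. IER3 and KLF6 stood apart from these 8, with correlations to each other of -0.08 and -0.04. KLF6 was nearest to JUN in the 4B4 library (0.27) and to FOSB in the control library (0.22), and IER3 was nearest to JUNB in both (0.26 and 0.28). Of the 45 pairs, 32 were higher in the 4B4 library, with a median difference of 0.03, and the pairs share members. Correlations with genes outside the 10 were also higher in the 4B4 library: of 6191 such genes 155 reached 0.2 with FOSB in the 4B4 library and 68 in the control library, and 67 and 10 with JUNB. Within G1 cells alone the means were 0.23 and 0.21.

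**Figure D3:**
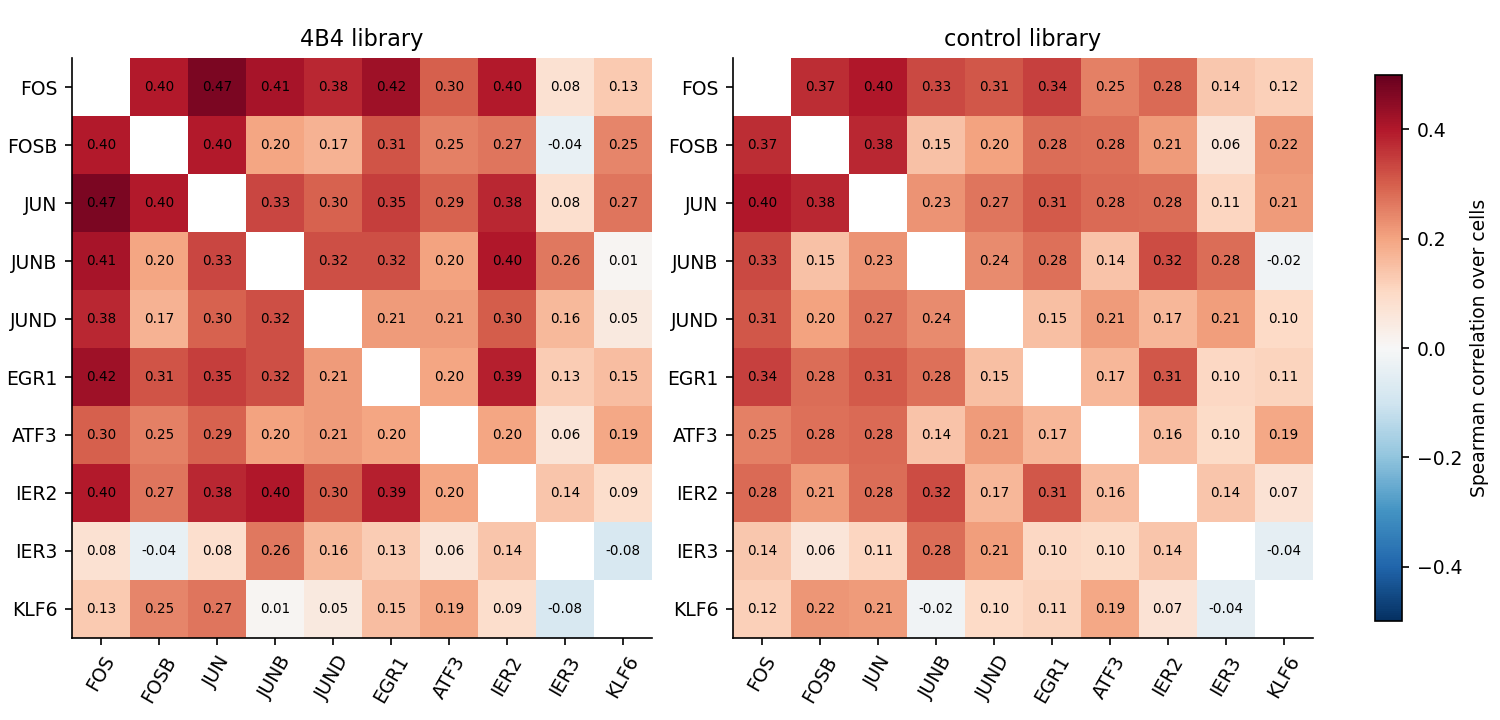
Spearman correlation of each pair of members over the thinned cells of the 4B4 library (left, 1311 cells) and the control library (right, 3099 cells). The block from FOS to IER2 is positive throughout in both libraries, while the IER3 and KLF6 rows are near 0 for several partners.

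Set among the other genes, the same 8 members were often each other's nearest. Each member was correlated with the 9 other members and with 6191 further genes of at least 20 UPM in both libraries. Among the 10 genes nearest to each of these 8 were 3 to 7 of the 9 other members in the 4B4 library and 4 to 8 in the control library. These counts can include IER3 and KLF6, which are not among the 8. In the control library IER3 held place 3 for JUNB and place 10 for JUND and for IER2, and KLF6 place 7 for ATF3. For JUN, 7 of the 9 other members were among its 10 nearest genes in both libraries. For IER2 these were 6 of 9 in the 4B4 library and 8 of 9 in the control library, and for EGR1 7 of 9 in both. For KLF6 no member was among the 10 nearest genes in either library, and for IER3 1 was.

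The genes outside the 10 that were named most often among the 3 nearest were DUSP1, KLF2, TUBA1A, AC020916.1 and ZFP36. DUSP1, the phosphatase that switches MAP kinases off, was among the 3 nearest to 6 members, with correlations of 0.15 to 0.39, the highest with FOS in the 4B4 library (0.39, and 0.27 in the control library). KLF2, a Krüppel-like factor, was among the 3 nearest to 5 members, and ZFP36, which binds AU-rich messenger RNAs and speeds their decay, to 3. For JUN and KLF2 the correlation was 0.35 in the 4B4 library and 0.17 in the control library. IER3 was nearest to GDF15, a stress-induced cytokine, at 0.36 in both libraries. FOSB was nearest to AC020916.1 (0.38 and 0.31) and to NEAT1, the nuclear noncoding RNA of paraspeckles (0.33 and 0.34). KLF6 was nearest to FNDC3B in the 4B4 library (0.34) and to TRIO in the control library (0.27). These are ranks among many genes in sparse counts, and correlations near 0.2 or below are weak.

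The members split by how they stood to MALAT1, a nuclear RNA. Cells of each library were ranked by thinned MALAT1 and cut into 5 equal bins. FOSB had 125 UPM in the highest bin and 28.0 UPM in the lowest of the 4B4 library, a log2 ratio of 2.16, and 137 and 43.5 UPM in the control library, a log2 ratio of 1.66. KLF6 (1.74 in the 4B4 and 1.17 in the control library) and ATF3 (1.36 and 0.98) were also higher in the MALAT1-rich bin. JUNB was lower there, by 0.69 and 0.50 on the log2 scale, with 168 and 270 UPM in the highest and lowest bins of the 4B4 library. JUN (0.47 and 0.50) and EGR1 (0.42 and 0.32) lay between, and FOS (-0.10 and 0.18) and IER2 (-0.16 and -0.15) stood near even. JUND (-0.35 and -0.0001) and IER3 (-0.32 and -0.08) were lower in the highest bin of the 4B4 library but near even in the control library. FOSB, KLF6 and ATF3 also had the 3 lowest ratios between the libraries, although that of ATF3 turned with each cell weighing the same. A link between these 2 orders was not tested, and no values over all genes were set beside these bins. Whether intronic reads were counted is not given in the sources used here, and the part of nuclear RNA in these values was not tested.

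Members were lower in cycling cells than in G1 cells for most pairs of member and phase. Compared with G1 cells of the same library, 10 of 10 members lay below even in S and in G2M cells of the 4B4 library, and 8 and 9 of 10 in the control library. The median log2 ratios of the 10 were -0.28 in S and -0.36 in G2M cells of the 4B4 library, and -0.40 and -0.31 in the control library, against medians between 0.04 and 0.12 over all genes. Of the members 1 was at least 1.5-fold lower in S cells of each library, beside 3.71% of genes in the 4B4 library and 3.43% in the control library. That was IER3, with 540 UPM in S and 889 UPM in G1 cells of the 4B4 library and 526 and 947 UPM in the control library. In G2M cells 2 members were at least 1.5-fold lower in each library, beside 3.9% and 4.66% of genes, and none was higher in either phase, beside 19.4% and 13% of genes in S and G2M cells of the 4B4 library and 12.7% and 13.3% in the control library. JUNB was lower in both, with 125 UPM in G2M and 229 UPM in G1 cells of the 4B4 library and 121 and 193 UPM in the control library. ATF3 in the 4B4 library (29.1 UPM in G2M and 45.8 UPM in G1 cells) and IER3 in the control library (608 and 947 UPM) were the others. KLF6 in the control library had 114 UPM in G2M and 98.3 UPM in G1 cells. The 4B4 library held 73 S and 83 G2M cells, so its intervals there are wide.

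Each library was clustered alone without the members and their companion lists, and both gave 5 clusters. KLF6 and FOSB differed most between clusters. In the 4B4 library KLF6 had 19.1 UPM in cluster 1 and 142 UPM in cluster 3, a 7.41-fold range, and FOSB 23.7 and 101 UPM in the same clusters, a 4.27-fold range. Clusters were numbered within each library, so the same number does not name the same cells in both. In the control library the lowest levels of both were in its own cluster 1 (47.1 UPM of KLF6 and 42.1 UPM of FOSB), with ranges of 2.67 and 3.19-fold. JUNB and IER3 were highest in cluster 1 of each library, with 310 and 1057 UPM in that of the 4B4 library and 260 and 1100 UPM in that of the control library. Cluster 1 had the lowest MALAT1 in each library, 863 UPM in the 4B4 and 1362 UPM in the control library. Its median mitochondrial share was 2.36% in the 4B4 library, under that of the other clusters (6.13% to 8.59%), and 9.11% in the control library. IER2 differed least in the control library, with a 1.13-fold range. No ranges over all genes were set beside those of the members.

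**Figure D4:**
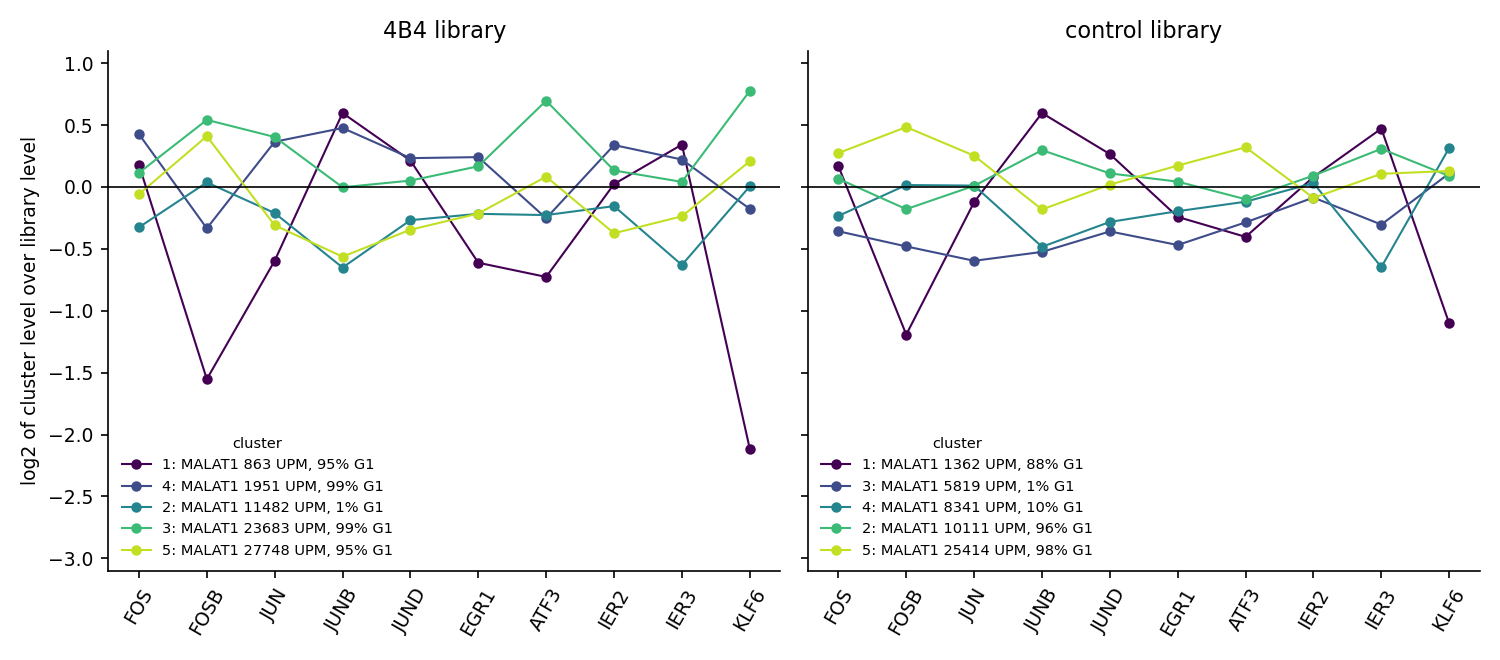
Level of each member in each cluster over its level in the whole library, on the log2 scale, for the 4B4 library (left) and the control library (right); lines are clusters, coloured from low (dark) to high (light) MALAT1, with MALAT1 and the share of G1 cells in the legend. In both libraries the darkest line falls at FOSB and KLF6 and lies high at JUNB and IER3.

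Cells rich in these genes were looked at as a possible dissociation-linked subset, through the sum of FOS, FOSB, JUN, JUNB, EGR1, ATF3 and IER2 per thinned cell. The median sum was 20 UMIs in both libraries, and the highest cell had 112 in the 4B4 library and 100 in the control library. The bounds used are points on this range and mark no cell type. The spread was larger in the 4B4 library, with a variance over mean of 12.1 against 8.81 and a ninth decile of 45 against 41 UMIs. The 4B4 library had 15.2% of cells (13.3% to 17.2%) at or above 41 UMIs, the control library's ninth decile, and the control library 10.5% (9.43% to 11.6%). Among G1 cells, with their own bound of 44 UMIs, the shares were 12.1% (10.3% to 14.1%) and 10.6% (9.28% to 11.9%). These intervals hold counting error over the cells of a single library each, not the spread between cultures. The sum was 0 in 9 of 1311 4B4 cells and 8 of 3099 control cells.

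Within each library the tenth of cells with the highest sum (139 4B4 cells and 325 control cells) was set against the other cells, reading only genes not used to choose them. The cells compared share a library, so the counts that follow describe these cells by size only. Of the members not in the sum, JUND had 440 UPM in the richest and 268 UPM in the other 4B4 cells, and 374 and 243 UPM in the control library, log2 ratios of 0.71 and 0.63. IER3 had log2 ratios of 0.35 and 0.51, and KLF6 of 0.21 and 0.41. JUND thus followed the sum while IER3 and KLF6 did so less.

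Some other primary response genes were higher in the same cells. Of 21 measured genes of that list, 5 were at least 1.5-fold higher and none lower in the richest 4B4 cells, and 8 higher and 1 lower in the richest control cells, beside 0.918% and 1.34% of all genes higher and 2.52% and 1.57% lower. NR4A1, an orphan nuclear receptor, had 33.0 UPM in the richest and 11.5 UPM in the other 4B4 cells (log2 ratio 1.52), and 48.5 and 22.5 UPM in the control library (1.11). ID2 (1.06 and 0.69), KLF2 (0.94 and 0.68) and RHOB (0.80 and 0.70) were also past the bound in both libraries. In the control library the count of 8 was 5 when the cells were chosen by a sum without IER2 and JUN, and 4 of 20 with the richest 835 cells in place of 325. FOSL1, a Fos relative, was the one lower in the control library, at 53.8 UPM in the richest and 84.4 UPM in the other control cells. Of the MAP kinase feedback list only DUSP1 was past the bound (1 of 8 measured in the 4B4 and 1 of 7 in the control library), with 230 UPM in the richest and 101 UPM in the other 4B4 cells and 154 and 88.8 UPM in the control library.

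Of the other genes that enzymatic dissociation is reported to induce, 3 of 33 measured were higher in the richest 4B4 cells and none lower. In the richest control cells 6 of 35 were higher and none lower. Over all genes 0.918% and 1.34% were higher and 2.52% and 1.57% lower. The control count was 4 with the richest 835 cells, 4 within G1 cells and 7 with the sum without IER2 and JUN. The 4B4 count was 2 with that sum. ZFP36 had 100.3 UPM in the richest and 33.3 UPM in the other 4B4 cells (log2 ratio 1.59) and 75.8 and 34.7 UPM in the control library (1.13). NFKBIZ, an NF-κB regulator, had log2 ratios of 0.86 and 1.09. Heat shock chaperones, which dissociation is also reported to induce, were nearer to even: 1 of 12 measured was higher in the 4B4 library (HSPA1B, with 24.1 and 13.6 UPM) and 0 of 11 in the control library. Their median log2 ratios were 0.10 in the 4B4 library and -0.04 in the control library, and those of the other dissociation genes 0.21 and 0.28. The medians over all genes were -0.03 and 0.01.

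**Figure D5:**
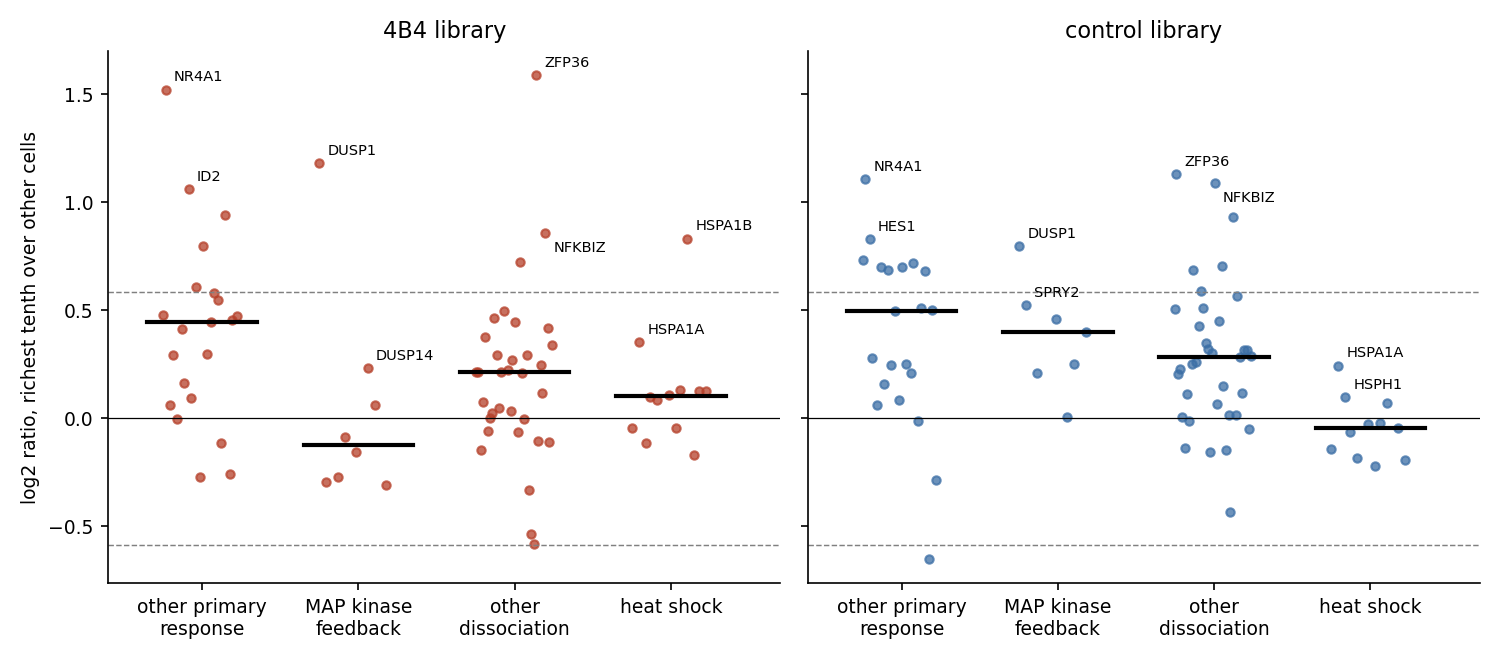
Log2 ratio of the tenth of cells with the highest summed immediate early UMIs over the other cells, for each measured gene (points) of 4 lists, in the 4B4 library (left) and the control library (right); black bars are list medians and dashed lines the 1.5-fold bounds. NR4A1, DUSP1 and ZFP36 lie highest in their lists in both libraries, and heat shock genes lie around 0.

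The richest cells also differed in other measures. They were shallower before thinning, with a median of 57544 UMIs in the richest and 73467 UMIs in the other 4B4 cells, and 30518 and 35449 UMIs in the control library. S cells made up 2.16% of the richest and 5.97% of the other 4B4 cells, and 5.23% and 13.0% in the control library, and G2M cells 2.88% and 6.74% in the 4B4 library and 9.54% and 20.5% in the control library. Median MALAT1 was 4353 UPM in the richest and 7882 UPM in the other 4B4 cells but 13706 and 7588 UPM in the control library, so it went in opposite directions. Median mitochondrial shares were 8.14% and 7.66% in the 4B4 library and 9.34% and 9.03% in the control library. The part of depth, phase, MALAT1 and mitochondrial share in the members' sums was not tested.

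Between the libraries, genes of the same pathway lay in both directions beside the near-even members. Of 29 other primary response genes measured, 4 were higher by at least 1.5-fold and 6 were lower in the 4B4 library. Among the higher, RHOB had 92.7 UPM in the 4B4 library and 45.5 UPM in the control library. Among the lower, FOSL1 had 40.0 UPM in the 4B4 library and 91.2 UPM in the control library and NR4A1 12.4 and 25.0 UPM. FOSL1, the Fos relative linked to sustained MAP kinase signalling, thus stood in contrast to FOS. Of 26 kinases and factors that act upstream, none passed the bound in either direction, nor did any of 13 heat shock genes or of 15 genes of AU-rich decay. Of 12 measured MAP kinase feedback genes only DUSP4 was higher, with 26.3 UPM in the 4B4 library and 17.2 UPM in the control library. Of 20 leucine zipper partners 1 was higher and 4 lower, FOSL1 among the lower. Of 38 other dissociation genes 1 was higher (BHLHE40, 75.6 and 50.2 UPM) and 3 lower (GADD45B, IRF1 and PER1). Of 13 measured genes with well known AP-1 sites, 5 were higher and 2 lower: TIMP1, an inhibitor of metalloproteinases, had 4176 UPM in the 4B4 library and 1861 UPM in the control library, and PLAU, the urokinase protease, 100.3 and 202 UPM. The lists overlap, and the shares of all measured genes past the bound were 2.1% higher and 5.82% lower, as above.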

How the data were processed

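The authors deposited UMI counts for each gene in each cell barcode, and per the file headers these come from Cell Ranger 7.1.0. The submitters' processing notes name Seurat 5.0.1 and the build GRCh38. The sources used here do not give the gene annotation, the intron setting, the reads or any barcode filter after cell calling. Members and lists were chosen with earlier results of these data known.

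Barcodes needed 1000 or more genes and no more than 20% mitochondrial UMIs to be kept. Counts were summed per library; sums carry exact Poisson intervals, shares Clopper-Pearson intervals and ratios an interval from the Clopper-Pearson bounds of the 4B4 share of both libraries' counts. A gene was measured at 5 UPM in either library (20 UPM within a library or for correlations) and passed the bound at a ratio of 1.5 with its interval on the same side of 1. With 1 library per group no test was run. Cells were thinned to 17000 UMIs without replacement. Phases (43 S and 54 G2M genes) and Leiden clusters (2000 variable genes, 30 components, 15 neighbours, resolution 0.5) came from scanpy 1.11.5. No doublet caller was run, so doublets were not removed. Ranks for likeness used Spearman correlation. Named genes were the 10 members, up to 4 genes of each list with the largest ratios, between libraries or between richest and other cells, and the 3 nearest genes of each member. TMM factors came from edgeR 4.0.16. Gene spans are from GENCODE release 29 on GRCh38, joined by gene ID, and promoters from RefSeq on GRCh38.p14. Scripts were tested on simulated data. Some single genes of the lists are not reported here.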

Additional observations from a re-analysis of the deposited data

How the results depend on the processing

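No paired analysis was possible because each group has 1 library. The count of members at least 1.5-fold lower was 0 as reported and 1 (ATF3) under the stricter cell filter, with a total without mitochondrial genes, in G1 cells only, with the phases weighing the same and without the 1% of cells richest in each gene. The median log2 ratio of the 10 members, 0.06 as reported, was 0.041 with no cell filter, 0.10 under the stricter filter, 0.082 in thinned cells, 0.11 with TMM scaling, 0.023 without mitochondrial genes, -0.060 in G1 cells, 0.15 in cells of 20000 to 60000 UMIs and 0.13 with each cell weighing the same. The mean pairwise correlation was 0.19 at 10000 UMIs per cell, 0.34 without thinning, 0.23 in G1 cells and 0.22 under the stricter filter in the 4B4 library (0.24 as reported), and 0.17, 0.25 and 0.20 at 10000 UMIs, without thinning and under the stricter filter in the control library (0.21 as reported). The share of cells at or above the control library's ninth decile was 45.2% of 4B4 cells without thinning, where sums were not adjusted for depth. It was 14.7% without thinning as UMIs per 17000, and 12.1% among G1 cells. Other primary response genes higher in the richest control cells were 4 with a wider set of richest cells and 5 with a sum without IER2 and JUN, against 8 as reported. For the share above the ninth decile, the G1 bound, the UMIs per 17000 and the sum without IER2 and JUN were chosen after the data had been seen. The causes were not tested. With 1 library per group these alternatives show how values depend on processing, not how cultures vary, and all levels are relative to library totals.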
